A study of Morella rubra with 12 samples.

Results

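The genes described here were expressed more in ripe red fruits of the Chinese bayberry (Morella rubra) cultivar Dongkui (DK) than in ripe pale fruits of the strain Baidongkui (BDK), and their level in BDK fell between the last 2 stages. They were chosen by a rule on FPKM as deposited, a level scaled to the length of the gene and the size of the library. With 1 added to each mean, the DK mean had to be at least 6, the DK mean at least 2 times that of ripe BDK, and the BDK mean at 70 days at least 2 times that of ripe BDK. In addition, the lowest DK library had to lie above the highest library of ripe BDK. Of 119701 genes listed, 91 met the rule, and all 91 are called members below.

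RNA was sequenced from whole fruits. BDK fruits, with the colour label pink, were taken at 55, 70 and 85 days after flowering (stages 1, 2 and 3), and DK fruits, with the colour label black, at 85 days only (stage 3). Each of the 4 groups holds 3 libraries. No label ties a library to a tree or fruit of its own, and p-values therefore cover the spread among these libraries, part or all of which may be technical. DK was sampled at no earlier stage, so whether its levels fell or held in DK before 85 days was not measured.

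Bayberry fruits are made of juicy sacs around a stone, and they turn from green to their ripe colour while they soften and take up sugar. The red to black colour of ripe fruits comes from anthocyanins, pigments made by the flavonoid pathway, and pale fruits hold little of them. Unripe fruits are also known to carry tannins and other phenolics that become fewer as the fruit ripens. The files pair no gene ID with a name, so no member can be placed in these pathways, and members are known by ID only.

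Summed FPKM was 817744 to 1219278 per library, and between 32084 and 48737 genes were listed above 0. Read counts are not held in the files, which leaves the depth behind each value unknown. A split that crosses the groups ran through the libraries. The first set holds all of BDK stage 1, 1 library of BDK stage 2 (replicate 1) and a pair of BDK stage 3 (replicates 1 and 2), and the second set the other 6 libraries, DK included. In all, 876 genes were above 0 in every library of the first set and at 0 throughout the second, and 120 the reverse. BDK stage 3 replicate 2 had the highest level of its group for 67 members (73.6%), against 45.2% of the tested genes of at least 5 FPKM in DK. Values with the set in the model, within a set, or without that replicate stand beside the results they bear on.

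Together the members held a larger share of the transcripts in BDK fruits of 55 and 70 days and in ripe DK fruits than in ripe BDK fruits. Their summed FPKM was 0.696%, 0.632% and 0.666% of the total in the 3 libraries of BDK stage 1. It was 0.603%, 0.572% and 0.546% at stage 2, and 0.133%, 0.239% and 0.152% at stage 3. In DK it was 0.598%, 0.668% and 0.609%. The ripe BDK libraries were the lowest 3 of 12, with replicate 2 the highest of them. The rule fixed this order against DK and BDK stage 2. Only the stage 1 values were not used by the rule, and they lay at 0.665% ± 0.032 (SD, n = 3), above the whole stage 2 range. The 10 highest members held 52.6% to 58.6% of the members' summed FPKM in each group. In bulk fruit, fewer cells of a type and less RNA per cell cannot be told apart.

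**Figure D1:**
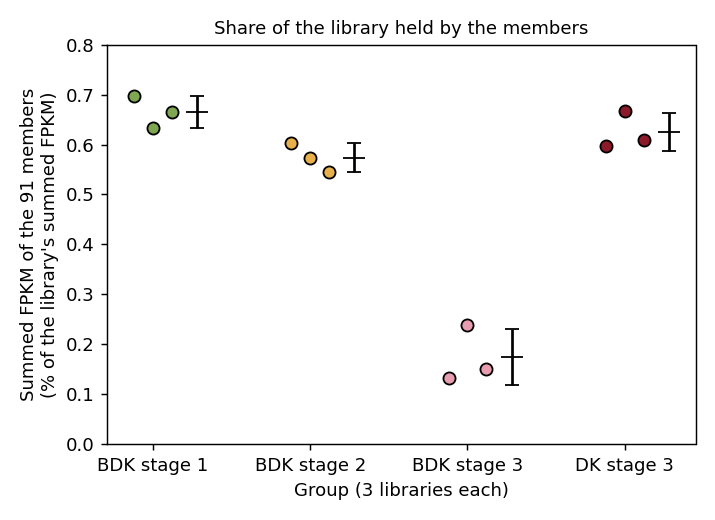
Summed FPKM of the 91 members as a percentage of each library's summed FPKM (y axis, from 0), for 3 libraries per group (points) with mean and SD (bars). The 3 ripe BDK libraries sit between 0.133% and 0.239%, and the other 9 between 0.546% and 0.696%.

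The members covered 2 orders of magnitude in level. Their group means ran from 5.07 to 546 FPKM in DK, with a median of 20.4, and 15 members had at least 100 FPKM there and 24 under 10. The medians over the members were 30.9 FPKM in BDK fruits of 55 days, 25.3 in those of 70 days and 5.12 in ripe ones. The ratio of DK to ripe BDK (means plus 1) had a median of 3.05, reached 4 in 33 members and 8 in 8 members. The fall from BDK stage 2 to stage 3 had a median ratio of 3.35, reached 4 in 38 members and 8 in 11. These ratios chose the members and are given as a description. Among the 23074 genes tested (at least 1 FPKM in at least 3 libraries), 1.31% had a DK to ripe BDK ratio of at least 2 without overlap, and 11.4% fell at least 2-fold from BDK stage 2 to 3. All 91 members were among the tested genes, as the minimum level in DK made likely.

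The largest ratio of DK to ripe BDK belonged to c107382_g1. This gene was at 327, 337 and 345 FPKM in the DK libraries and at 1.87, 4.11 and 2.05 in ripe BDK. At BDK stage 2 it was at 19.6, 13.6 and 32.9 FPKM, and at stage 1 at 58.6, 64.3 and 64.5. The BDK level thus stepped down at each stage, with no overlap between stages, while the DK libraries lay above all 9 BDK libraries. The ratio of the plain means, DK to ripe BDK, was 126.

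Second in this order was c48279_g1, which was present in BDK at 70 days and in ripe DK and listed at 0 in the other groups. It was at 37.9, 16.9 and 12.7 FPKM at BDK stage 2 and at 23.7, 34.1 and 13.5 in DK, ranges that overlap. All 6 libraries of BDK stages 1 and 3 listed it at 0, so no fold is given. Its assembly cluster (IDs that differ only in the last number) holds a pair of other detected genes, with group means of at most 5.90 FPKM, and reads could have been divided among them.

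The highest level in DK belonged to c48654_g1. It was at 538, 479 and 621 FPKM in DK and at 93.3, 299 and 236 in ripe BDK. The BDK stage 2 libraries, at 949.7, 929 and 947 FPKM, were the highest of the 12, and the stage 1 libraries were at 660.4, 584 and 848. The next highest, c49053_g1, was at 348, 273 and 418 FPKM in DK, above every BDK library. In BDK it went from 100.1, 112 and 135 FPKM at stage 1 through 53.1, 52.1 and 73.2 at stage 2 to 17.8, 15.6 and 9.08 at stage 3. The 3 BDK stages did not overlap for this gene.

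By the ratio of means plus 1, c48279_g1 also had the largest late fall in BDK, at 23.5, followed by c55527_g2, at 19.3. The latter was at 65.7, 33.0 and 33.2 FPKM at BDK stage 2 and at 0.62, 1.77 and 1.61 at stage 3, a ratio of the plain means of 33.0. DK, at 7.62, 9.46 and 12.6 FPKM, lay between these groups, and stage 1, at 165, 120.5 and 148, lay above them. A second member, c55527_g1, belongs to the same cluster and had group means of 257, 100.7, 4.87 and 42.0 FPKM at BDK stages 1, 2 and 3 and in DK, so the separate levels of both are uncertain.

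**Figure D2:**
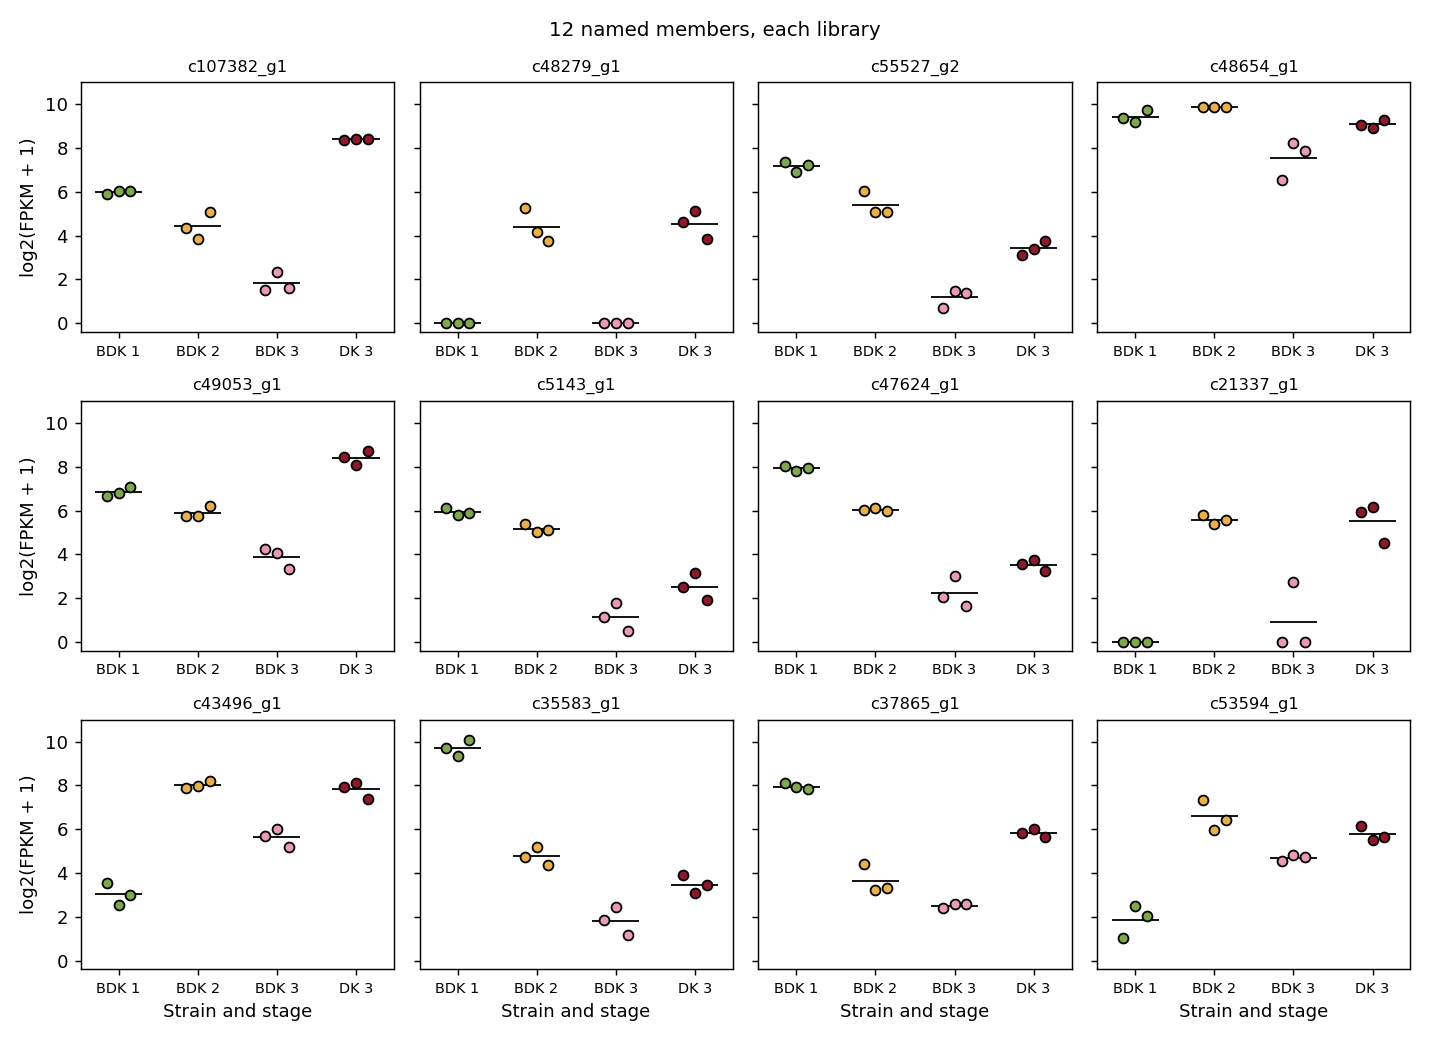
Levels of 12 members in each library, as log2(FPKM + 1) (y axis), by strain and stage (x axis). Points are libraries and lines group means on this scale. In each panel the 3 DK points lie above the 3 BDK stage 3 points, as the rule required, while the stage 1 points range from 0 to the highest of the panel.

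The comparison of DK with BDK stage 2 sets ripe DK fruits beside BDK fruits of 70 days. Strain and age differ together in this comparison. For 64 members the means of both groups lay within 2-fold of each other. On the log2(FPKM + 1) scale, limma called 12 members (13.2%) higher and 18 (19.8%) lower in DK at an adjusted p below 0.05. Over all genes tested it called 16.3% higher and 17.1% lower, so for calls of any size the members' shares were near the background. With a change of at least 2-fold also required, 9 members (9.89%) were higher and 14 (15.4%) lower, beside 3.40% and 5.65% of all genes tested. The rule used the levels of both groups, though not their contrast. Its minimum level in DK favours calls of at least 2-fold, because the log2(FPKM + 1) scale understates changes of low genes. The excess over the background is therefore no independent result. The median difference of the members, DK minus BDK stage 2, was 0.12, beside -0.06 over all genes tested. With no filter on low values 7 members were called higher, and with upper-quartile factors over all detected genes none of the 91 was called lower by limma, with 2 lower at an unadjusted p below 0.05. A model with the library set gave 12 and 17 calls.

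The other 61 members were not called, and their differences ran from -0.98 to 1.55 with a median SE of 0.30. A difference of less than 2-fold was fitted for 56 of them, which does not show that the groups were alike. In ratios of the means plus 1, 11 members were at least 2-fold higher in DK and 16 at least 2-fold lower. The ratios reached from 0.168 to 14.6. Shares over all genes tested are not given for counts by this ratio, which only describe the members.

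The 2 members furthest above BDK stage 2 in DK were c107382_g1 and c49053_g1, whose library values are given above. The log2 difference of c107382_g1 was 4.12 ± 0.28 (SE), with limma's adjusted p of 6.52e-06. That of c49053_g1 was 2.69 ± 0.26, with an adjusted p of 4.30e-05. The 12 members called higher had a median of 121 FPKM in DK, 21.9 at BDK stage 2, 8.02 at stage 3 and 110.3 at stage 1. In 9 members (9.89%) the DK libraries lay above all 9 BDK libraries, beside 2.49% of the genes tested, a count that the rule itself raised because it required DK to lie above ripe BDK.

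Furthest below BDK stage 2 was c5143_g1, which was also the member closest to the minimum level. It was at 4.71, 7.75 and 2.75 FPKM in DK and at 41.2, 31.0 and 33.2 at BDK stage 2. Ripe BDK had 1.23, 2.39 and 0.42 FPKM of it, and stage 1 had 67.9, 54.0 and 58.3. DK thus lay closer to BDK stage 3 than to stage 2. The log2 difference, DK minus BDK stage 2, was -2.50 ± 0.33, with limma's adjusted p of 0.000273.

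In c47624_g1, the next, DK was at 10.7, 12.5 and 8.45 FPKM and BDK stage 2 at 63.9, 68.8 and 61.8. Stage 3 was at 3.19, 7.08 and 2.11 and stage 1 at 258, 226 and 242. The log2 difference was -2.37 ± 0.27, with limma's adjusted p of 0.000118. With upper-quartile factors over all detected genes the adjusted p rose to 0.10 for c5143_g1 and 0.13 for c47624_g1. The 18 members called lower had medians of 10.5 FPKM in DK, 43.5 at BDK stage 2, 3.99 at stage 3 and 84.3 at stage 1.

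**Figure D3:**
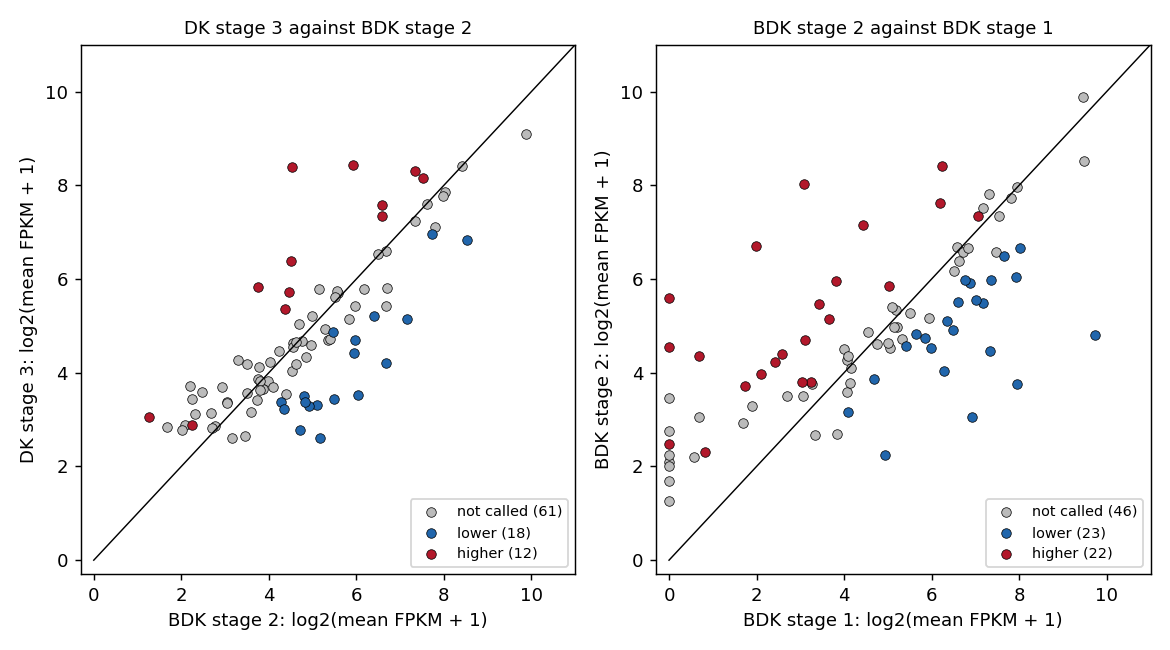
Group means of the 91 members as log2(mean FPKM + 1), DK against BDK stage 2 (left) and BDK stage 2 against stage 1 (right), coloured by limma's call; the line marks equal levels. On the left 61 members are not called, 12 are higher and 18 lower in DK. On the right 22 are higher and 23 lower at stage 2, and the points spread further from the line.

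The first BDK step, from stage 1 to stage 2, runs from 55 to 70 days, and stage 1 is the only group the rule did not use. Here the members split. Limma called 22 (24.2%) higher and 23 (25.3%) lower at stage 2, and 46 were not called. The shares over all genes tested were 23.0% and 28.1%, so in this step too the members were near the background for calls of any size. Changes of at least 2-fold were called upward in 18 members (19.8%) and downward in 17 (18.7%), beside 8.04% and 13.1% of all genes tested. The median difference was 0.20 for the members and -0.07 for all genes tested. Stage 2 was used by the rule, which required it to lie at least 2-fold above ripe BDK. By itself this favours higher calls and a higher median at stage 2. The minimum level in DK also favours calls of at least 2-fold. In neither direction is the excess over the background therefore an independent result. With the library set in the model 18 were called higher and 18 lower. Upper-quartile factors over all detected genes gave 11 and 6.

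Of the members that rose in this step, c21337_g1 had the largest log2 change. It was listed at 0 in each stage 1 library and was at 53.9, 41.3 and 46.3 FPKM at stage 2. At stage 3 it was at 0, 5.61 and 0, and in DK at 60.7, 70.8 and 21.7. BDK stage 2 and DK overlapped, and all 6 other libraries were lower. The adjusted p from limma for stage 2 against stage 1 was 6.08e-05. A second gene of its cluster had group means of 4.20 to 18.5 FPKM, so its level is uncertain.

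The next was c43496_g1. It rose from 10.6, 4.80 and 7.03 FPKM at stage 1 to 237, 252 and 292 at stage 2, then was at 51.4, 63.8 and 36.0 at stage 3 and at 241, 279 and 168 in DK. The DK range overlapped that of BDK stage 2. The log2 change from stage 1 to stage 2 was 5.03 ± 0.27, with limma's adjusted p of 2.40e-07.

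Among those that fell, c35583_g1 was the member with the highest stage 1 mean, 856 FPKM. It was at 849, 657 and 1061 FPKM at stage 1 and at 25.8, 35.2 and 19.7 at stage 2. It was at 2.63, 4.44 and 1.27 FPKM in ripe BDK and at 13.8, 7.43 and 9.89 in DK. Thus DK lay above ripe BDK but far under the stage 1 level. The log2 change from stage 1 to 2 was -4.90 ± 0.34, with limma's adjusted p of 1.33e-06.

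In c37865_g1 the stage 1 libraries were at 275, 241 and 225 FPKM and the stage 2 libraries at 20.2, 8.33 and 8.98, a log2 change of -4.25 ± 0.24 with limma's adjusted p of 3.60e-07. It was at 4.22, 4.97 and 4.99 FPKM in ripe BDK and at 55.8, 64.0 and 48.9 in DK. DK was higher than BDK at stages 2 and 3 and lower than at stage 1, with no overlap.

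**Figure D4:**
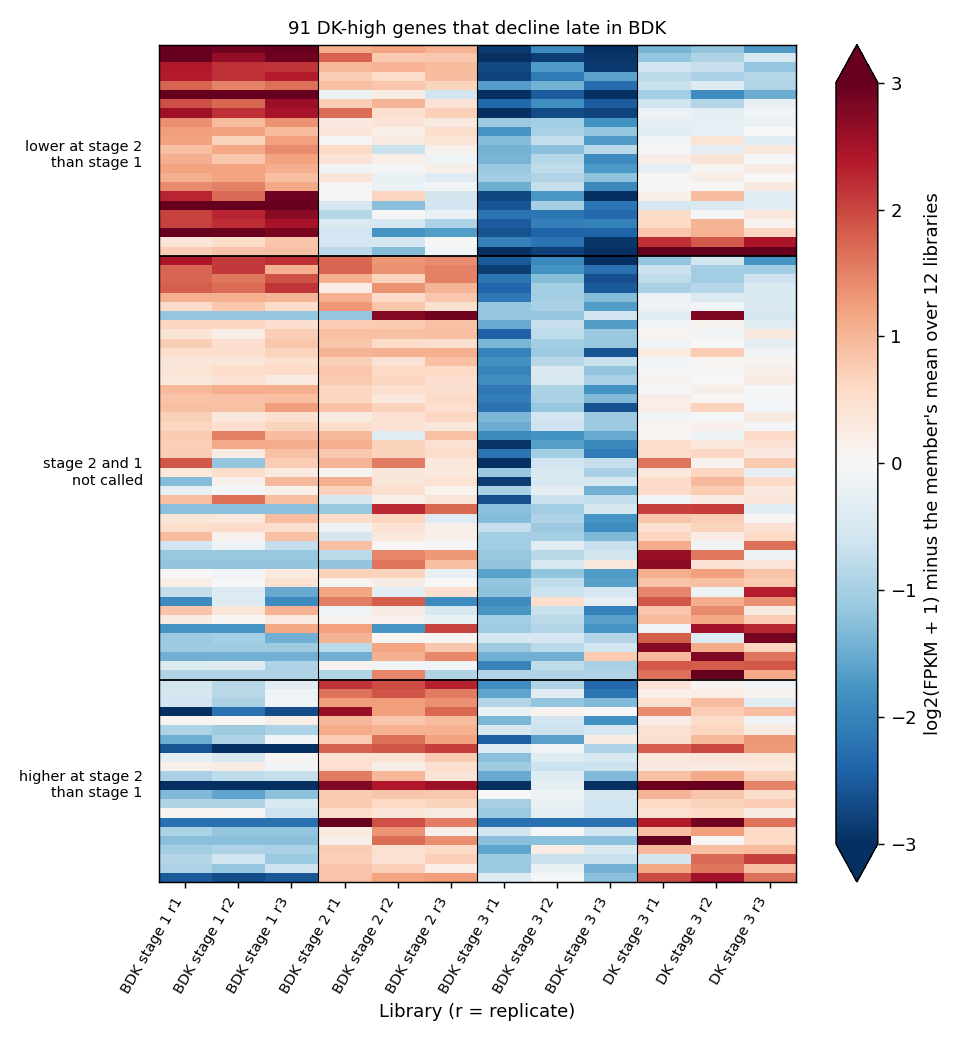
Levels of the 91 members (rows) in the 12 libraries (columns), as log2(FPKM + 1) minus the member's own mean, with colours limited to 3 units either side. Rows are grouped by limma's call for BDK stage 2 against stage 1 (23 lower, 46 not called, 22 higher) and, within groups, ordered by DK minus BDK stage 2. The BDK stage 3 columns are mostly low, and the BDK stage 1 columns go from high in the top rows to low in the bottom rows.

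Against stage 1, ripe BDK was lower for most members. Limma called 57 (62.6%) lower and 6 (6.59%) higher at stage 3, beside 31.2% lower and 24.9% higher among all genes tested. At least 2-fold, 54 members (59.3%) were lower and 4 (4.40%) higher, beside 17.5% and 10.6%. The median difference was -1.51 for the members and -0.09 for all genes tested. The rule required a low stage 3 level, which by itself favours lower calls, so the excess over the background is no independent result. The calls were 55 lower and 6 higher with the library set in the model, and 24 and 6 with upper-quartile factors over all detected genes.

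The largest fall in this comparison was again that of c35583_g1, with a log2 change from stage 1 to stage 3 of -7.69 ± 0.34 (SE) and limma's adjusted p of 2.86e-08. It was followed by c55527_g2, at -5.81 ± 0.30 with an adjusted p of 7.09e-08. Another 28 members were not called. Of the 6 called higher at stage 3, c53594_g1 had the largest log2 change. In c53594_g1 the stage 1 libraries were at 1.08, 4.60 and 3.17 FPKM and the stage 3 libraries at 22.2, 27.5 and 26.0. Stage 2 was higher still, at 161, 61.4 and 86.0, and DK was at 69.7, 44.3 and 49.8. The log2 change from stage 1 to stage 3 was 3.03 ± 0.38, with limma's adjusted p of 4.81e-05. A pair of other genes of its cluster had group means of 18.0 to 35.5 FPKM in all 4 groups, so its level is uncertain. For c43496_g1 the log2 change was 2.83 ± 0.27, with an adjusted p of 6.44e-06.

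Set beside BDK fruits of 55 days, the DK level had no common direction. The ratio of DK to BDK stage 1 (means plus 1) had a median of 0.991. It was at least 2 in 30 members, at most 0.5 in 25 and between these in 36. By group mean, 38 members were highest at BDK stage 1, 23 at BDK stage 2 and 30 in DK. The lowest group was BDK stage 3 for 68 members and BDK stage 1 for 23, where 3 members at 0 in both groups were counted under stage 1. No member had its highest mean at BDK stage 3, as the rule dictates. Shares over all genes tested are not given for these counts, which only describe the members.

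Members listed at 0 in some libraries followed the library split in part. Of the 91 members, 75 were above 0 in all 12 libraries. Of the other 16, 10 were at 0 in all stage 1 libraries. Among these, 7 were below 1 FPKM in every library of the first set, with 0.61 FPKM as their highest value there, and 6 of the 7 were above 1 FPKM in both BDK stage 2 libraries of the second set. Their DK means were 5.31 to 9.92 FPKM. The second set holds every DK library but only 1 library of ripe BDK, so DK and ripe BDK can be compared within a set through that library alone. Whether strain or library set underlies the difference was not tested for these 7 genes. Counted without them, 11 of 84 members were called higher and 18 lower in DK than at BDK stage 2, and the calls against stage 1 stayed at 22, 23, 6 and 57.

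At such values a 2-fold fall in means plus 1 could not appear within the first set for any of the 7, and their ratios of BDK stage 2 to 3 there were 0.766 to 1.12. In c48104_g1, c55146_g2, c56791_g1 and c95377_g1 (named after their values were seen) BDK stage 2 replicate 1 was listed at 0. For instance, c56791_g1 had 0, 14.2 and 15.9 FPKM at stage 2, was at 0, 0 and 0.52 at stage 3 and at 0.79, 14.6 and 0.55 in DK. One DK library carried most of its DK mean. The genes at 0 in all libraries of ripe BDK were c43651_g1, c48279_g1 and c95377_g1.

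For most members the ratios of the rule were also found within a set. Within the second set, where ripe BDK has 1 library, the DK to ripe BDK ratio was at least 1.63 in all 91 members, at least 2 in 80, and had a median of 3.71. The BDK stage 2 to 3 ratio was at least 2 in 78 members within the second set, with a median of 3.84, and in 74 within the first set, with a median of 3.47. These values use the libraries that chose the members, so they are no independent support. The rule put every DK library above every ripe BDK library, which fixed a DK to ripe BDK ratio above 1 within the second set.

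Ripe BDK, where their median level was lowest, was also the group in which the members varied most between libraries. The median coefficient of variation over the members was 15.3%, 18.6% and 45.8% for BDK stages 1, 2 and 3 and 19.3% for DK. For the 11534 tested genes of at least 5 FPKM in DK it was 8.96%, 8.11%, 10.6% and 8.34% in the same order. Those genes were chosen by their DK level and not matched to the members in ripe BDK, where the rule required low values. The difference in ripe BDK is therefore given as a description only. The members' lowest ripe BDK library was replicate 1 in 50 members, replicate 3 in 40 and replicate 2 in 1. Ties at 0 were counted under the first of the tied replicates, and 3 members were at 0 in every ripe BDK library. The gap between the groups was often small, with a median ratio of the lowest DK to the highest ripe BDK library of 1.67 and a smallest one of 1.03.

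The number of genes that met the rule depended on 2 libraries. Without BDK stage 3 replicate 2 it was 190, with 89 of the 91 members among them, and without DK replicate 3 it was 157, with 87 of the 91. Leaving out any other of the 9 libraries the rule uses gave 85 to 109 genes. Each library left out was then compared with genes chosen without it. For the BDK stage 2 libraries, 81.4% to 85.2% of the genes so chosen had the left-out library at least 2-fold above the mean of ripe BDK. For ripe BDK the left-out library was at least 2-fold under both other groups' means in 71.8% of the genes for replicate 1, 65.3% for replicate 3 and 23.2% for replicate 2. For DK, it was at least 2-fold above the ripe BDK mean in 73.5%, 63.3% and 43.9% of the genes for replicates 1, 2 and 3. The left-out library fell on the same side of the other group's range in 65.6% to 97.8% of the genes. The libraries it was compared with had helped to choose the genes, which by itself favours these shares. No shares over all genes are given beside them, and they only describe the rule.

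**Figure D5:**
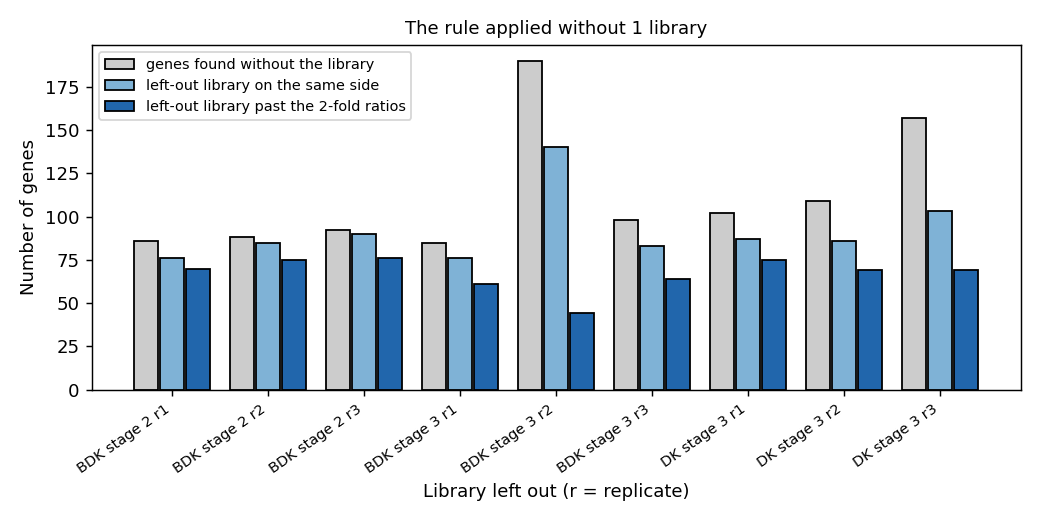
Number of genes (y axis, from 0) that met the rule without 1 library (grey), those among them whose left-out library lay on the same side of the other group's libraries (light blue) and those whose left-out library passed the 2-fold ratios (dark blue), for each of the 9 libraries the rule uses. Without BDK stage 3 replicate 2, 190 genes are found and 44 of them pass the ratios in that library.

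Some members may be parts of 1 gene. The 91 members fall into 87 assembly clusters, and 4 clusters hold 2 members each. In c47121_g1 and c47121_g2 (also named after their values were seen) the group means were 184 and 104.8 FPKM at BDK stage 1, 161 and 95.0 at stage 2, 74.5 and 39.6 in ripe BDK, and 314 and 160.3 in DK. Both therefore went the same way in each step. Of the members, 48 were the only detected gene of their cluster and 43 were not. With FPKM summed over clusters, 68 of the 87 clusters met the rule, but the 48 members alone in their cluster did so by definition. Of the 39 clusters with another detected gene, 20 met it. In addition, 6 members had a gene of the same cluster that was at least 2-fold lower in DK than in ripe BDK.

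Genes just outside the thresholds had values next to those of the nearest members. The DK mean plus 1 was 6.07 for the lowest member and 5.95 for the nearest gene left out. The DK to ripe BDK ratio was 2.004 just inside and 1.99 just outside. For the ratio of BDK stage 2 to stage 3 these values were 2.003 and 1.99, and the gene just outside had a mean of 1066 FPKM in DK, above every member. A further 247 genes met all 3 minima but had overlapping DK and ripe BDK libraries.

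In total 172 genes met the conditions on DK and ripe BDK, and 52.9% of these also fell 2-fold in BDK from stage 2 to 3. Of all 14542 genes at the same minimum level in DK, 1039 fell 2-fold. Both conditions use the ripe BDK libraries, which raises their overlap, so nothing is read from this share. The other 81 had a DK level like that of the members, with a median of 20.3 FPKM, and medians of 5.85, 6.24 and 6.13 FPKM at BDK stages 1, 2 and 3, where the members had 30.9, 25.3 and 5.12. Ripe BDK against stage 1, which the rule's late fall bears on, was called lower for 21 of the 80 tested (26.2%) and higher for 39 (48.8%). The difference between these genes and the members was not tested, because the rule separates them by their stage 2 and 3 levels.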

How the data were processed

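RNA sequencing of 12 fruit libraries was used, 3 each of BDK stages 1, 2 and 3 and of DK stage 3. The files deposited by the authors give each gene a single FPKM, per the file headers. Which assembler, aligner and quantifier made it is not given in the sources used here. Because no counts are held, depth is unknown and no counting interval is given. Groups and replicate numbers come from the sample titles, and stages 1 to 3 were matched to the days of the series' design text in order.

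The rule was applied to FPKM as deposited. For tests, FPKM was divided by trimmed-mean factors (30% of log ratios and 5% of levels trimmed at each end; factors 0.898 to 1.11), and log2(FPKM / factor + 1), which understates changes of low genes, was fitted with limma 3.58.1 in R 4.3.3. All 4 groups entered 1 model with variances following the mean level, over 23074 genes of at least 1 FPKM in at least 3 libraries. Benjamini-Hochberg adjustment ran over all genes tested. The procedure was tested on simulated data with independent noise for each gene and no library split. That test therefore does not cover the split seen in these libraries. The 3 comparisons tested share libraries with each other and with the rule.

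Named members are the 2 with the largest DK to ripe BDK ratio, the 2 with the largest BDK stage 2 to 3 ratio, the 2 with the highest DK mean, and for each tested comparison the 2 largest called rises and falls whose higher group averages 10 FPKM or more and whose libraries do not overlap. Others are said to have been named after their values were seen. The members, lists and settings were chosen with earlier results of these data known. Planned gene lists (anthocyanin, ethylene, cell wall and sugar genes) could not be used without gene names.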

Additional observations from a re-analysis of the deposited data

How the results depend on the processing

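The number of genes meeting the rule was 297 with both ratios at 1.5 and 29 with both at 3. With FPKM divided by the trimmed-mean factors of the tests it was 80, with 76 of the 91 members among them. With factors from the median of ratios it was 78, with 75 of the 91. In the second library set alone it was 214, with 69 of the 91. That setting, like the sums over clusters and upper-quartile factors over the genes tested, was chosen after seeing the data. When each library was left out in turn, the number of genes ran from 85 to 190. The calls moved by over 1.5 times with upper-quartile factors over all detected genes, which rest on values under 1 FPKM and ran from 0.515 to 3.56. They gave 0 members lower in DK than at BDK stage 2, 11 higher and 6 lower in the first BDK step, and 24 lower at stage 3 than at stage 1. Under these factors the median log2 change of all genes was 0.67 from BDK stage 2 to DK and 0.53 from stage 1 to stage 3, and under no factors -0.18 and -0.26. No filter gave 7 members higher in DK than at BDK stage 2. Leaving out each library gave 9 to 14 higher and 15 to 23 lower in DK than at stage 2, 18 to 27 and 21 to 26 for the first BDK step, and 5 to 8 and 55 to 58 from stage 1 to ripe BDK. Of 276 repeats of the 12 named log2 differences, 274 kept their call and 2 lost it. These 12 were picked as the largest called changes without overlap of libraries, which made kept calls likely beforehand. Nothing in the labels says that replicate numbers pair libraries, and deviations of same-numbered libraries correlated at -0.14 to 0.10; with the replicate block the calls were 12 and 18, 21 and 24, and 6 and 57.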
